A study of Mus musculus with 8 samples.

Results

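The nuclear-encoded subunits of the mitochondrial respiratory chain and ATP synthase were followed in CD8+ T cells cultured in vitro with or without a guide against Elovl1. Members were chosen by symbol alone, as the genes of complex I (Ndufa, Ndufb, Ndufc, Ndufs and Ndufv), complex II (Sdha to Sdhd), complex III (Uqcr and Cyc1), complex IV (Cox4i to Cox8), complex V or ATP synthase (Atp5) and the carrier cytochrome c (Cycs), without pseudogenes and without the Ndufaf assembly factors. Of 56805 counted symbols, 116 matched, 15 pseudogene rows and 8 Ndufaf rows were dropped, and 83 of the remaining 93 had at least 10 counts in every column. These 83 members comprised 37 genes of complex I, 4 of complex II, 9 of complex III, 15 of complex IV, 17 of complex V and Cycs. The 10 genes under the minimum were Cox4i2, Cox6c2, Cox7b2, Cox8b, Cox8c, Ndufa4l2, Ndufa11b, Ndufb4c, Ndufb11b and Ndufs6b, of which Cox7b2 and Cox8c had no count at all.

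Complexes I and II feed electrons from NADH and succinate into ubiquinone, complex III passes them to cytochrome c, and complex IV hands them to oxygen. Complexes I, III and IV pump protons across the inner mitochondrial membrane, and ATP synthase lets the protons back to make ATP. Complexes I, III, IV and V are built from subunits of both the nuclear and the mitochondrial genome, whereas complex II and cytochrome c are encoded in the nucleus only. T cells enlarge their mitochondria and raise respiration when they are activated.

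The cells came from OT-I:Rosa26-Cas9 mice on a C57BL/6J background, bred from Rag2/OT-I mice, so that all carried a T cell receptor for an ovalbumin peptide and Cas9 in every cell; mice of both sexes between 6 and 12 weeks of age were used in the study. Splenic and lymph node CD8+ T cells were activated with beads against CD3 and CD28, expanded in IL-2, IL-7 and IL-15, transduced with a lentivirus carrying a nontargeting guide (sgNT) or a guide against the fatty acid elongase gene Elovl1 (sgElovl1), and sorted on the vector's CD90.1 marker 3 days later, at day 7 from activation. Each guide was run in 2 experiments with 2 replicate samples, and the authors merged the replicates, which leaves 4 columns of counts from 8 labelled samples. The sorted cells were a population edited to an unknown degree, not a clone.

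Total counts ranged from 49068952 to 63623476 per column. Elovl1 had 110 (sgNT) and 61.3 (sgElovl1) CPM (counts scaled to a common library size, with edgeR's TMM factors) in experiment 1 and 93.5 and 55.8 in experiment 2, a log2 fold change of -0.80 (SE 0.07, edgeR quasi-likelihood test, Benjamini-Hochberg adjusted p = 3.8e-28). The 8 CD8 T cell markers summed to 5248 to 7676 CPM (here of total counts), the lowest of them at 427, whereas the 20 markers of other cell types summed to 40.5 to 79.3, most of it from Pecam1. Ms4a1, Ncr1, Siglech, Hbb-bs and Pf4 had no count in any column, and Cd4 had at most 6 counts. Because the samples are bulk RNA, fewer cells of a kind and less RNA per cell cannot be told apart. A p-value measures only the spread between merged columns. In edgeR that spread was a trend over all genes (infinite prior degrees of freedom). Its SEs and p-values thus do not reflect a gene's own spread between columns.

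The levels of the subunits were first ordered per length, as CPM per kilobase of the principal transcript (CPM per kb, mean of the 4 columns). ATP synthase had the highest median level per length, 259 CPM per kb (94.0 to 564 over its 17 genes), followed by complex IV at 186, complex III at 118, complex I at 74.4 and complex II at 52.5. The leading member was Cox4i1, the ubiquitous isoform of the complex IV subunit COX4, at 574 CPM per kb with a range of 501 to 678 over the columns. Atp5h, subunit d of the peripheral stalk, followed at 564 (524 to 617), and Atp5b, the catalytic beta subunit of the F1 head, at 548 (373 to 762). The ranges of these 3 genes overlapped, so that their order was not set. The F1 subunits Atp5d and Atp5e stood at 450 and 442, and Cox6b1, a complex IV subunit on the side of the intermembrane space, at 367.

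**Figure D1:**
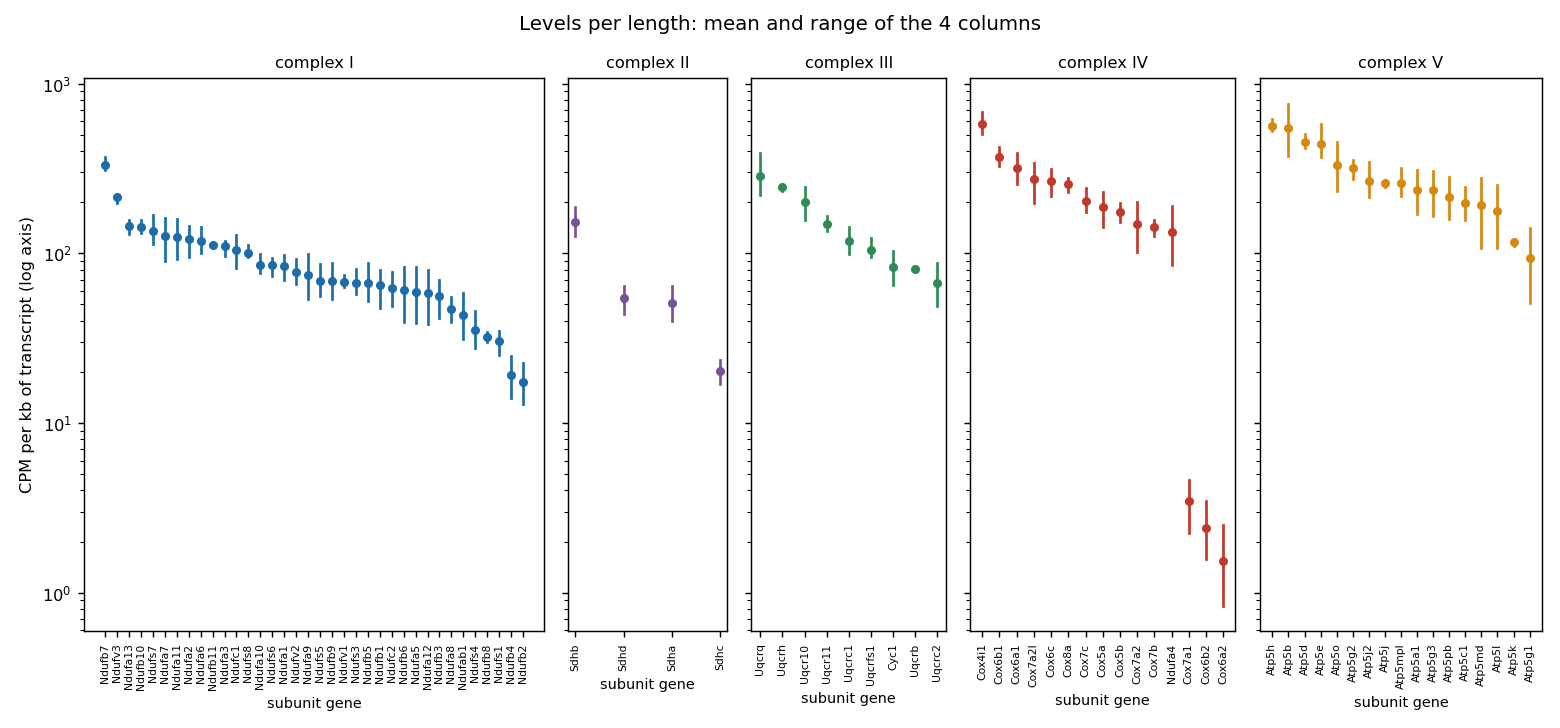
Level of the subunit genes of complexes I to V in CPM per kilobase of transcript (log axis), ordered within each complex, with points for the mean and lines for the lowest and highest of the 4 columns. Cox4i1, Atp5h and Atp5b lead, and Cox7a1, Cox6b2 and Cox6a2 lie far below every other member.

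Only 6 genes were among the 10 highest per length in all 4 columns, namely Atp5b, Atp5d, Atp5e, Atp5h, Cox4i1 and Cox6b1, whereas 13 genes were among them in at least 1 column. In complex I the accessory subunits Ndufb7 (332 CPM per kb, 308 to 369) and Ndufv3 (215, 199 to 224) led, and Ndufb2 was lowest at 17.5. Among the core subunits, which carry out electron transfer, the large iron-sulfur subunit Ndufs1 was at 30.2 CPM per kb. In complex III the small subunits Uqcrq (287) and Uqcrh (247, the hinge protein that helps cytochrome c dock) led and the core protein Uqcrc2 was lowest at 66.9. In complex II the iron-sulfur subunit Sdhb was at 152 CPM per kb, above the membrane anchor Sdhd at 54.3, the flavoprotein Sdha at 50.8 and the anchor Sdhc at 20.3. The ranges of Sdhd (44.0 to 64.2) and Sdha (39.7 to 63.8) overlapped, whereas those of Sdhb and Sdhc stood apart. Cytochrome c1 (Cyc1) was at 82.5 CPM per kb and Cycs at 26.0. The authors counted reads over whole genes, introns included, whereas the lengths are those of spliced transcripts, so levels per length carry that mismatch. In the mouse annotation 12 members overlap another gene on the same strand, among them Ndufb2, Cox4i1 and Atp5b. Reads in such overlaps leave their levels less certain, and the effect was not tested.

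The comparison of the guides asks whether the RNA of the respiratory chain differs in Elovl1-deficient cells. None of the 83 members was past the threshold (adjusted p below 0.05) between sgElovl1 and sgNT in edgeR, where 1.20% of the 16006 genes tested were. At an unadjusted edgeR p below 0.05 there were 8 of 83 members, beside 1698 of the 16006 genes tested. All 8 were lower in sgElovl1. DESeq2 (Wald or likelihood-ratio test) and limma-voom also called 0 of 83. The median log2 fold change of the members was -0.05, beside -0.01 over all genes tested. By complex it was -0.05 for complex I, -0.04 for complex II, -0.05 for complex III, -0.05 for complex IV and -0.08 for complex V. In the 80 members that averaged 5 CPM or more, the standard error of the log2 fold change was 0.06 to 0.15, and their 95% intervals lay between -0.31 and 0.29, that is between 0.807-fold and 1.23-fold.

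The 2 experiments gave different pictures of the guides, a difference that was not tested. In experiment 1 the log2 fold change was below 0 in 66 of 83 members (79.5%, beside 54.4% of all genes tested) with a median of -0.13. In experiment 2 it was below 0 in 35 of 83 (42.2%, beside 50% of all genes) with a median of 0.01. Signs were opposite between the experiments in 37 of 83 members (44.6%) and in 44.1% of all genes tested. The share of mitochondrially encoded RNA was higher in sgElovl1 in both experiments, at 8.72% against 6.82% of counts in experiment 1 and 13.5% against 9.59% in experiment 2. Its part in the CPM of the members was not tested by itself. With TMM factors set without mitochondrial and the 20 most counted genes, the median between guides was -0.03 for the members. It was 0.009 for all genes tested.

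**Figure D2:**
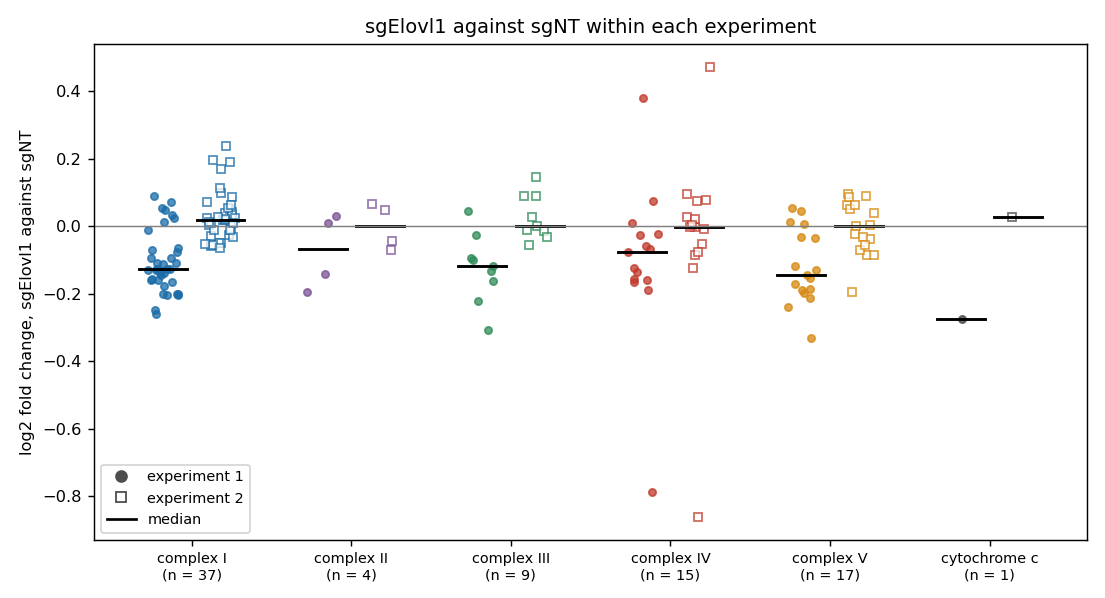
Log2 fold change of sgElovl1 against sgNT for each of the 83 members, by complex, in experiment 1 (filled circles) and experiment 2 (open squares), with medians as black lines. The median of complex I is -0.13 for the circles and 0.02 for the squares, and the isolated points of complex IV are Cox6a2 (low) and Cox6b2 (high), both near 1 CPM.

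The smallest adjusted p among the members belonged to Uqcrq, which had 158 (sgNT) and 128 (sgElovl1) CPM in experiment 1 and 91.0 and 88.9 in experiment 2. The fitted difference was -0.17 on the log2 scale with an SE of 0.06 (edgeR adjusted p = 0.208), and the step lay mainly in experiment 1. Atp5e, the epsilon subunit of F1, had 242 and 192 CPM in experiment 1 but 155 in both columns of experiment 2 (-0.17, adjusted p = 0.222). Atp5g1, which encodes a precursor of the c subunit of the ATP synthase rotor, had 97.1 and 87.4 CPM in experiment 1 and 40.3 and 35.2 in experiment 2 (-0.17, adjusted p = 0.281), lower with sgElovl1 in both. Ndufb7 had 230 and 192 CPM, then 205 and 201 (-0.15, adjusted p = 0.347). Ndufa4, first assigned to complex I and now to complex IV, had 85.6 and 75.1 CPM, then 41.8 and 38.4 (-0.16, adjusted p = 0.374). For Ndufa10, an accessory subunit of complex I, the log2 fold change was -0.12 (adjusted p = 0.466), and for Uqcrfs1, the Rieske iron-sulfur protein of complex III, it was -0.12 (adjusted p = 0.513).

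On the other side of 0, Ndufb1 had 41.8 and 42.8 CPM in experiment 1 and 25.4 and 29.9 in experiment 2 (0.13, adjusted p = 0.575). The complex I subunit Ndufa6, a partner of the mitochondrial acyl carrier protein, had a log2 fold change of 0.11 (adjusted p = 0.6), Cox5b, the zinc-binding subunit of complex IV, 0.07 (0.755), Uqcrh 0.06 (0.834), Uqcrb, a small subunit of complex III, 0.04 (0.935), Atp5k, subunit e of ATP synthase, 0.05 (0.904) and Atp5md, a small membrane subunit of ATP synthase, 0.04 (0.927). The core subunits of complex I ranged from -0.10 to 0.03, with Ndufs1 the one above 0. In complex II the values were -0.11 for Sdha, -0.12 for Sdhb, 0.03 for Sdhc and 0.05 for Sdhd, and Cyc1 had -0.09 and Cycs -0.13. Every sgElovl1 CPM lay below every sgNT CPM in 3 members (Ndufb7, Atp5d and Cox6a2), 3.61% beside 6.85% of all genes tested, and above in 1 (Uqcrb), 1.20% beside 5.77%. Uqcrb, at 42.8 and 43.1 CPM with sgNT and 44.1 and 43.9 with sgElovl1, shows how small such a step can be.

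Many more members were past the threshold between the 2 experiments than between the 2 guides. In the same fit 69 of 83 members were past the threshold for experiment 2 against experiment 1, and 60 of these were lower and 9 higher in experiment 2, where 29.2% of all genes tested were lower and 26.4% higher. The columns of an experiment are its sgNT and sgElovl1 cells, not repeats of it. The p-values between experiments thus hold no spread between repeated experiments. The median log2 fold change of the members was -0.45, beside -0.002 over all genes. It was -0.53 between the sgNT columns and -0.41 between the sgElovl1 columns. Both columns of experiment 2 lay below both of experiment 1 in 64 members (38.4% of all genes tested) and above in 11 (37.4%), which leaves 8 that overlapped. Among the 9757 genes averaging 5 CPM or more, fitted alone, 36.4% were lower and 36.0% higher in experiment 2, and 55 of the 80 members tested there were lower and 10 higher.

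**Figure D3:**
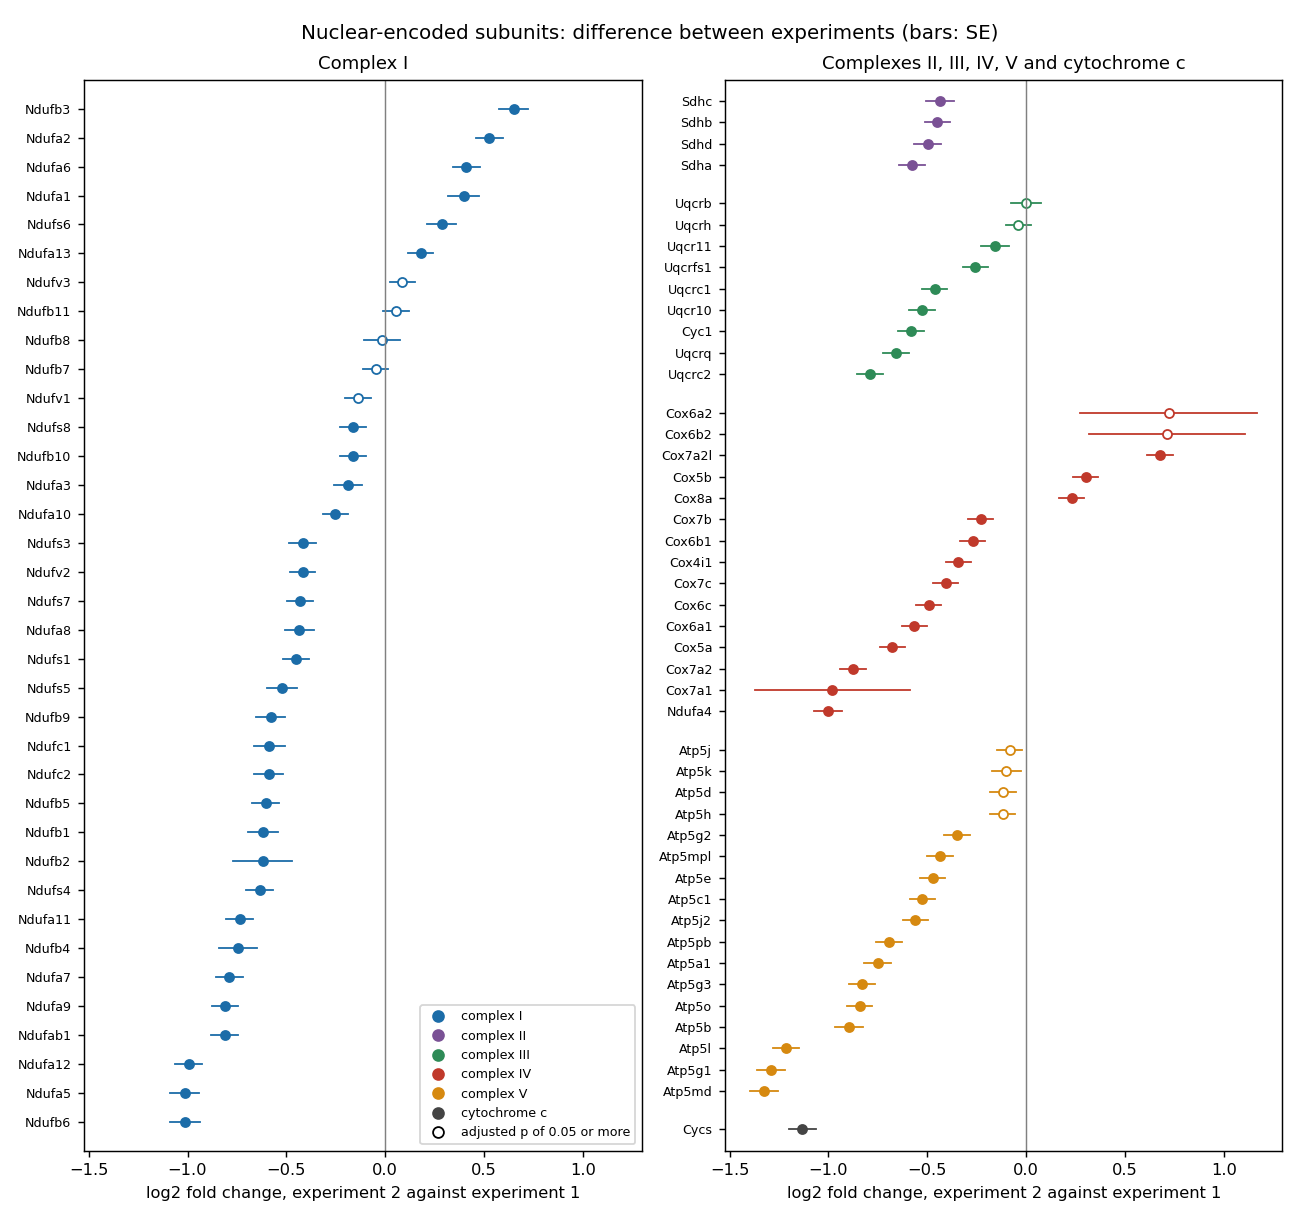
Log2 fold change of experiment 2 against experiment 1 for the members labelled on the axes, with bars for the standard error and open points where the adjusted p was 0.05 or more. Members lie from -1.32 (Atp5md) to 0.72 (Cox6a2), all 4 complex II genes lie between -0.58 and -0.44, and no ATP synthase gene lies above 0.

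Complex V had the lowest median of the complexes, -0.56, and 13 of its 17 genes were lower and none higher. Atp5md fell by 1.32 on the log2 scale (SE 0.07, edgeR adjusted p = 3.77e-77), from 99.1 and 99.9 CPM in experiment 1 to 38.9 and 40.6 in experiment 2. Atp5g1 fell by 1.29 (SE 0.07, adjusted p = 7.53e-72), and Atp5l, subunit g of the membrane part, by 1.21 (SE 0.07, adjusted p = 8.73e-71), from 132 and 137 to 58.1 and 58.2 CPM. Atp5l has 9 near-identical copies in the mouse annotation that together held 1.98% as many counts, so that reads shared with them leave its level less certain. The catalytic subunit Atp5b went from 1460 and 1272 CPM to 750 and 715 (-0.90, SE 0.07). In contrast, Atp5h at 385 and 349 CPM, then 327 and 348, did not pass (-0.12, adjusted p = 0.107), nor did Atp5d, Atp5j and Atp5k.

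In complex I 25 of 37 genes were lower and 6 higher, with a median of -0.43. Its core and accessory subunits had medians of -0.42 and -0.55. Core subunits that were lower included Ndufs1 (-0.45, SE 0.07), Ndufs3 (-0.42, SE 0.07), Ndufs7 (-0.43, SE 0.07), Ndufs8 (-0.16, SE 0.07) and Ndufv2 (-0.42, SE 0.06), whereas the NADH-binding subunit Ndufv1 (-0.14, SE 0.06) did not pass. The 6 that rose were all accessory subunits. Ndufb3 went from 34.8 and 31.8 CPM to 52.7 and 51.7 (0.65, SE 0.07, adjusted p = 2.4e-17), Ndufa2 rose by 0.53 (SE 0.07) and Ndufa6 by 0.41 (SE 0.07). Ndufa1, Ndufs6 and Ndufa13, named after their values were seen, rose by 0.40, 0.29 and 0.18. The most highly expressed members of the complex, Ndufb7 and Ndufv3, changed by -0.05 and 0.09 and did not pass.

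All 4 genes of complex II were lower, Sdha by 0.58, Sdhb by 0.45, Sdhc by 0.44 and Sdhd by 0.50. Sdha had 185 and 168 CPM in experiment 1 and 121 and 115 in experiment 2. In complex III 7 of 9 genes were lower and none higher (median -0.46), and Cyc1 fell by 0.58 (SE 0.06) and Uqcrq by 0.66 (SE 0.07). Uqcrb (0.00, SE 0.07) and Uqcrh (-0.04, SE 0.06) did not pass. Uqcrb has 3 near-identical copies, with 0.666% as many counts. Cycs, the electron carrier that also triggers apoptosis when it leaves the mitochondrion, fell by 1.13 (SE 0.07, adjusted p = 1.03e-59), from 122 and 101 CPM to 50.2 and 51.2.

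Complex IV had the median nearest to 0, -0.34, with 10 of 15 genes lower and 3 higher. Ndufa4 fell by 1.00 (SE 0.07) and Cox7a2 by 0.87 (SE 0.07), and Cox4i1, at 505 and 452 CPM and then 374 and 380, by 0.34 (SE 0.07). The 3 that rose were Cox7a2l by 0.68 (SE 0.06, adjusted p = 7.54e-25), Cox5b by 0.30 (SE 0.06) and Cox8a by 0.23 (SE 0.06). Thus members of 1 complex moved in opposite directions in the same columns, in complexes I and IV but not in II, III and V.

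Other values moved with the experiment. Gzmb, the granzyme B gene of activated killer T cells, went from 2498 and 2458 CPM in experiment 1 to 605 and 612 in experiment 2. It was 1 of 3 among the 8 T cell markers that were lower, with Thy1 and Trac, whereas Cd8a (0.48), Cd8b1 (0.46) and Cd3d (0.32) were higher and Cd3e and Lck did not pass. The 20 markers of other cells summed to 40.5 and 49.5 CPM in experiment 1 and 79.0 and 79.3 in experiment 2. Across 9479 genes of at least 5 CPM the experiment fold change ran with the GC content of the transcript (Spearman's rho 0.26, across genes, which are not independent), and across the 83 members rho was 0.25. With a GC trend removed in each column, 57 of the 80 members in that fit were lower and 9 higher. What else differed between the experiments cannot be told apart here. The part of the markers in these values was not tested.

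The promoters of the 4 members that fell most and of the 2 that rose most, among members past the threshold, are shown. Members that moved together can thus be compared letter by letter. RefSeq windows (GRCm38.p6) of the 250 bases before the transcription start were found for 69 of the 83 members by symbol. Capitals mark a letter-perfect match, on either strand, to GCGCATGCG (nuclear respiratory factor 1, NRF1), CCGGAAG (ETS factors such as GABPA), AAGATGGCG (YY1) or GGGGCGGGG (Sp factors), and none of the matches shown overlaps another. All but Ndufb3 lie on the minus strand, and each is written 5′ to 3′ in the direction of transcription.
Cycs, chr6:50566570-50566819: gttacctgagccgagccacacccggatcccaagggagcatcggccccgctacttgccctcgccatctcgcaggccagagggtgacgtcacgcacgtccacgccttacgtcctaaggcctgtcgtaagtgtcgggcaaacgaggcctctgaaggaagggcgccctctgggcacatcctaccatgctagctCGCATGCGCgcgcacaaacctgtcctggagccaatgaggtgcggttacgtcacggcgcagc
Atp5l, chr9:44920743-44920992: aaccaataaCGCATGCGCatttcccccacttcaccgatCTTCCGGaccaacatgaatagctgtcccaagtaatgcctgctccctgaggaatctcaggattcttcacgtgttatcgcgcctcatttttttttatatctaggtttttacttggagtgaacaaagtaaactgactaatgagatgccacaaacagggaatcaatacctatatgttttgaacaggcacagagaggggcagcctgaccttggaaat
Atp5md, chr19:47090648-47090897: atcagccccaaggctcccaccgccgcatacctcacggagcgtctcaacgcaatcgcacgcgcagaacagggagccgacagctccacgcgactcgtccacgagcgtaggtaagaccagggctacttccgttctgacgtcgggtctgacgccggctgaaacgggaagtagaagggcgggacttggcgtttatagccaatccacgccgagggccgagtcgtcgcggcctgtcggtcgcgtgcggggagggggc
Atp5g1, chr11:96075632-96075881: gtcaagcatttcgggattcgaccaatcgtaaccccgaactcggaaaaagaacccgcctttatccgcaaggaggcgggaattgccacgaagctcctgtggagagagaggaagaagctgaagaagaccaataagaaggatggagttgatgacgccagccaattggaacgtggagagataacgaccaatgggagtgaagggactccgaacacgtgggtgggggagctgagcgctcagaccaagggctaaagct
Cox7a2l, chr17:83514334-83514583: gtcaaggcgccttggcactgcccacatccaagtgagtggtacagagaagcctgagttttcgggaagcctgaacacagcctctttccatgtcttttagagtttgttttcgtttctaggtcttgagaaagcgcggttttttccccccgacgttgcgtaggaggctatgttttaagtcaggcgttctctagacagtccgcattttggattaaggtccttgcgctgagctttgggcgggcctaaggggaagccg
Ndufb3, chr1:58586147-58586396: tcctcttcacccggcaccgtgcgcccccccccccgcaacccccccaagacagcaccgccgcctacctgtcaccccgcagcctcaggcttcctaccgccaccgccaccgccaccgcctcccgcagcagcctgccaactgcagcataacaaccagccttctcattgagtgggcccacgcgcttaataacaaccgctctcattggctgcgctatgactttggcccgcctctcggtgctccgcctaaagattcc
The Cycs window holds 1 NRF1 match at 61 to 53 bases before the start, and the Atp5l window holds 1 NRF1 and 1 ETS match. The windows of Atp5md and Atp5g1, which fell most, hold none of the 4 motifs. Nor do those of Cox7a2l and Ndufb3, which rose most among members past the threshold. Over the 69 windows the NRF1 letters stood in 7 (10.1%), beside 1.45% of all 32851 windows and 3.02% of the 10440 windows of tested genes. The 7 genes were Ndufa8, Ndufa11, Cox6a1, Atp5g2, Atp5k, Atp5l and Cycs. The ETS letters stood in 15.9% of members' windows (6.91% of all, 14.3% of tested genes), the Sp letters in 13% (10.4% and 19.2%) and the YY1 letters in 0 (0.606% and 1.21%). Of the 7 genes with NRF1 letters 6 were lower in experiment 2, beside 50 of all 69 members with a window (72.5%), and Atp5k at -0.10 (SE 0.07) did not pass. The median log2 difference between experiments was -0.57 with and -0.46 without the NRF1 letters, -0.42 and -0.49 for the ETS letters, and -0.43 and -0.51 for the Sp letters.

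Several subunits have paralogs, and only some of these are tissue isoforms. Of the COX7A genes, Cox7a2 and Cox7a2l (also known as SCAF1) had like levels per length in experiment 1, at 201 and 223 CPM per kb with sgNT and 184 and 199 with sgElovl1. In experiment 2 they parted, at 108 and 334 with sgNT and 102 and 339 with sgElovl1. The log2 ratio of Cox7a2l to Cox7a2 thus differed by 1.55 between the experiments, 2.93-fold, and by 0.03 between the guides. The heart and muscle isoform Cox7a1 lay far below both, at 4.62 and 4.55 CPM per kb in experiment 1 and 2.39 and 2.25 in experiment 2 (-0.98, SE 0.39, edgeR adjusted p = 0.0237).

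**Figure D4:**
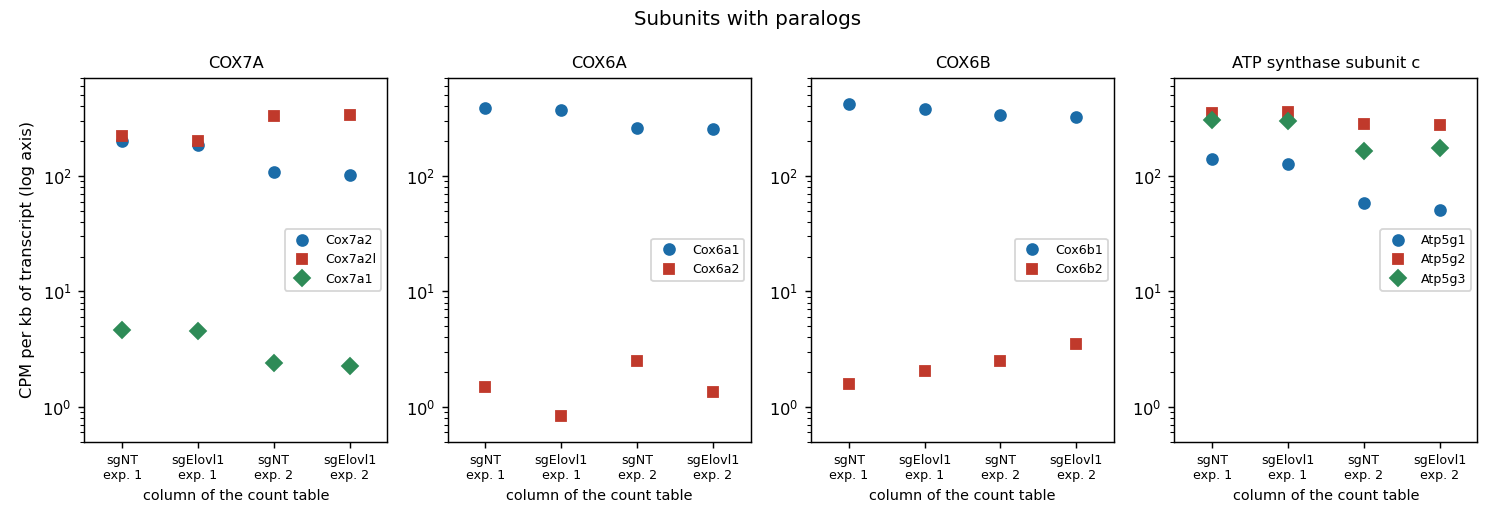
Level in CPM per kilobase of transcript (log axis) of paralogous subunit genes in the 4 columns. Cox7a2l and Cox7a2 nearly coincide in experiment 1 and part in experiment 2, whereas Cox6a2 and Cox6b2 stay at 0.838 to 3.49 CPM per kb, far below Cox6a1 and Cox6b1.

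The 3 genes of ATP synthase subunit c encode the same mature protein. Atp5g2 led at 354, 356, 282 and 275 CPM per kb (sgNT and sgElovl1 of experiment 1, then of experiment 2), Atp5g3 followed at 305, 297, 166 and 173, and Atp5g1 was lowest at 140, 126, 58.3 and 50.9. All 3 were lower in experiment 2, Atp5g2 by 0.35 (SE 0.06), Atp5g3 by 0.83 (SE 0.06) and Atp5g1 by 1.29. The order per length held while the log2 ratio of Atp5g1 to Atp5g2 differed by -0.94. In CPM, not divided by length, the ratio of Atp5g3 to Atp5g2 was 1.39 and 1.35 in experiment 1 and 0.95 and 1.02 in experiment 2. The muscle isoform Cox6a2 (0.838 to 2.5 CPM per kb) and the testis isoform Cox6b2 (1.57 to 3.49) were a small fraction of Cox6a1 (257 to 389) and Cox6b1 (326 to 420), with 30 to 107 counts per column. Cox6a2 was lower with sgElovl1 in both experiments (-0.86, SE 0.45, adjusted p = 0.491) and Cox6b2 higher in both (0.44, SE 0.39, adjusted p = 0.774), both within their error. Cox4i2, an isoform known from lung and low oxygen, had 35 and 17 counts in experiment 1 and 0 and 2 in experiment 2, under the minimum for members. Ndufa4l2 had 12 counts at most and Cox8b 1, whereas Cox8a was at 231 to 278 CPM per kb, and Cox7b was at 127 to 158 beside no count of Cox7b2.

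Summed over the 83 members the level was 13186 (sgNT) and 12011 (sgElovl1) CPM in experiment 1 and 9451 and 9468 in experiment 2. The mean log2 difference between guides was -0.07 (exact permutation test over the 4 columns, two-sided, p = 1), and between experiments it was -0.41 (exact permutation p = 0.33), the smallest p that 2 against 2 columns allow. Complex V made up the largest part, 5641 and 5067 CPM and then 3533 and 3477. The ratio of its counts to those of all other members, which does not depend on scaling, was 0.748, 0.730, 0.597 and 0.580 in the same order, lower in both columns of experiment 2 (log2 difference -0.33, exact permutation p = 0.33). The ratio was higher in experiment 2 for complex I (0.332 and 0.336, then 0.389 and 0.396; 0.23) and complex IV (0.216 and 0.222, then 0.263 and 0.266; 0.27), each at the same p. For complex II it was 0.0435 and 0.0441, then 0.0416 and 0.0408, and for complex III it stayed between 0.103 and 0.104. Between guides, within experiments 1 and 2, the log2 ratio was lower in sgElovl1 for complex V (-0.0351 and -0.041) and higher for complex I (0.0153 and 0.0284) and complex IV (0.0434 and 0.0162), whereas the signs were mixed for complexes II and III. The exact permutation p over the 4 columns was 0.667 or 1 for each. That test ignores the experiments, whose own differences limit how small it can be.

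Between experiments the mitochondrially encoded partners went the other way from most members. Between guides their summed CPM was higher in sgElovl1, whereas no member was called. The 13 mitochondrial genes for subunits of complexes I, III, IV and V summed to 68488 and 85551 CPM in experiment 1 and 94190 and 139639 in experiment 2. Of these 13 genes 11 were higher in sgElovl1 than in sgNT and 13 higher in experiment 2 than in experiment 1 in edgeR, whereas 0 and 9 of the nuclear members were. Beside them 0.762% of all genes tested were higher in sgElovl1. The count of 11 depended on the test. DESeq2 (Wald or likelihood-ratio) called 3, mt-Atp6, mt-Co2 and mt-Co3, each at 79.5 CPM or less. It gave no adjusted p for another 3. Among genes averaging 5 CPM or more, edgeR called 5 of the 11 in that fit, these 3 with mt-Nd4 and mt-Nd6. The abundant mt-Co1, mt-Cytb and mt-Nd2 were called in neither. With no experiment term edgeR called 0, although all 13 log2 fold changes lay above 0 in the full edgeR fit and in DESeq2. Between experiments DESeq2 called 9, and edgeR with the guide term dropped called 5 without the sgElovl1 column of experiment 2. For complex I the ratio of mitochondrially to nuclear-encoded counts was 8.08 (sgNT) and 10.9 (sgElovl1) in experiment 1 and 12.9 and 18.9 in experiment 2. For complex III it was 8.57 and 11.7, then 17.1 and 24.8, and for complex IV 13.3 and 18.0, then 22.9 and 33.5. The ratio was thus higher with sgElovl1 in both experiments, by 0.43 and 0.55 on the log2 scale for complex I, 0.45 and 0.53 for complex III and 0.43 and 0.55 for complex IV. Across the 4 columns, without regard to the experiment, the exact permutation p was 0.667 for each. Between experiments the log2 ratio was higher by 0.74, 1.04 and 0.84 (exact permutation p = 0.33, the smallest possible).

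**Figure D5:**
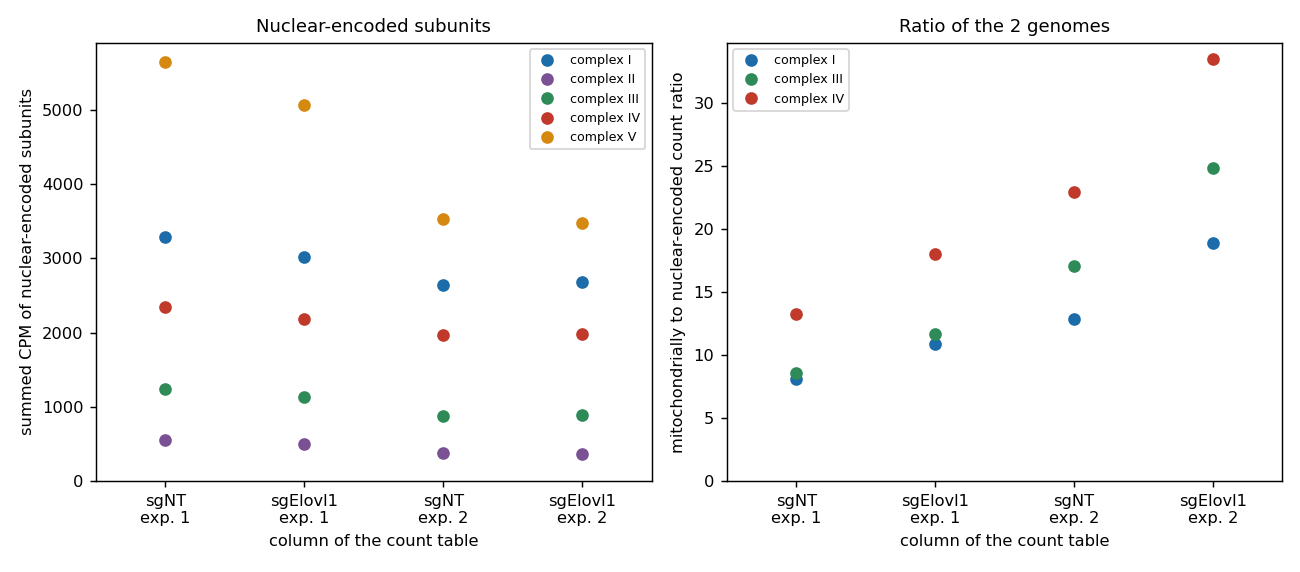
Left, summed CPM of the nuclear-encoded subunits of each complex in the 4 columns. Right, ratio of mitochondrially to nuclear-encoded counts for complexes I, III and IV, which is highest in the sgElovl1 column of experiment 2 (18.9, 24.8 and 33.5) and lowest in the sgNT column of experiment 1.

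Complex V is left out of that comparison, since its mitochondrial genes were hardly counted: mt-Atp6 had 19.3 to 61.9 CPM and mt-Atp8 1.14 to 9.92, beside 31169 CPM or more for mt-Co1. The annotation holds a nuclear copy of mt-Atp6 that matches 99.6% of its length at 100% identity, and copies of mt-Nd3, mt-Nd4l and mt-Co3 match at least 99.0% of their lengths. For mt-Co2, at 25.9 to 79.5 CPM, a copy matches the whole length at 95.9% identity. Reads with several alignments are not counted by default, so the counts of these genes are uncertain. The ratios for complexes I, III and IV rest on mt-Nd1, mt-Nd2, mt-Nd4, mt-Nd5, mt-Cytb and mt-Co1, which hold nearly all of their mitochondrial counts. Copies of mt-Co1 (97.6% identity over its whole length), mt-Nd4 (100% over 63.6%), mt-Nd5 (95.2% over 52.3%) and mt-Nd2 (96.7% over 49.1%) are annotated too, whereas none was found for mt-Nd1 and mt-Cytb.

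Assembly factors, which build the complexes without being part of them, were lower in experiment 2 as well. Of 57 listed factors 55 were tested, and 32 were lower and 5 higher in experiment 2 (median -0.31), beside the 29.2% and 26.4% of all genes. None was past the threshold between guides in edgeR (median -0.04). At an unadjusted edgeR p below 0.05 there were 5 of 55, beside 1698 of the 16006 genes tested. The smallest adjusted p for each complex belonged to Ndufaf2 of complex I (-0.29, SE 0.11, adjusted p = 0.246), Sdhaf1 of complex II (0.35, SE 0.14, 0.269), Uqcc2 of complex III (-0.17, SE 0.08, 0.375), Coa3 of complex IV (-0.22, SE 0.08, 0.211) and Atpaf2 of complex V (0.15, SE 0.08, 0.495). Of 11 tested regulators of mitochondrial genes none was past the threshold between guides, with Gabpa, the ETS factor named above, nearest at -0.20 (SE 0.07, adjusted p = 0.185). Between experiments 8 of the 11 were lower and 2 higher. The gene for NRF1 itself (Nrf1) had 54.0 and 45.5 CPM in experiment 1 and 39.9 and 38.0 in experiment 2.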

How the data were processed

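RNA of CD90.1-sorted OT-I T cells was sequenced by the authors with a strand-specific mRNA service, as 150-base paired reads. According to the submitters' processing notes and the study's methods, reads were aligned with STAR 2.7.10b to GRCm39 and counted with featureCounts 2.0.1 over whole genes on the reverse strand, and the deposited values are raw counts that the authors summed over the 2 replicates of a guide within an experiment.

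From these counts, genes were kept with filterByExpr (16006 genes; 32132 had no count) and tested with edgeR 4.0.16 (R 4.3.3): TMM factors, the quasi-likelihood F test with terms for guide and experiment, 1 residual degree of freedom, Benjamini-Hochberg adjustment over all genes tested and a threshold of 0.05. The prior degrees of freedom were infinite, so each gene's error came from the trend over all genes. The script was tested on simulated data. Ratios and sums were compared with exact two-sided permutation tests over columns. Transcript lengths came from GENCODE M21 (GRCm38) for all 83 members, 80 of them under their own symbol. Copies were searched there at 95% identity over at least 50% of the length. DESeq2 1.42.0 and limma 3.58.1 were alternatives.

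Members and lists were chosen with earlier results of these data known. Genes named were Elovl1, complex II, Cyc1, Cycs, paralogs and core subunits of complex I. The 2 highest per length and the 2 smallest p in each direction per complex were added. So were the 4 largest differences each way between experiments among members past the threshold. Of each list of other pathway genes, those past the threshold (at most 3) or the 1 with the smallest p were named. A member and a marker gene are in the counts and medians but are not reported here by name or plotted with a label.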

Additional observations from a re-analysis of the deposited data

Results flagged for a closer look

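The difference between sgElovl1 and sgNT had opposite signs in the 2 experiments for 37 of 83 members, a share close to that of all genes tested, and the difference between the experiments was not tested. For experiments 1 and 2 in turn, the members' median log2 fold change was -0.13 and 0.0133, that of complex I -0.13 and 0.0188, that of complex II -0.0665 and 0.0015, and that of complex V -0.14 and 0.0013. The summed CPM of all members differed by -0.13 (log2) and 0.0026, that of complex I by -0.12 and 0.023, that of complex III by -0.14 and 0.024, and that of complex IV by -0.10 and 0.0154. The log2 ratio of complex II to the other members differed by 0.0203 and -0.0264, and that of complex III by -0.003 and 0.0237.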

How the results depend on the processing

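For the replicate numbers, no paired analysis was possible because each column sums both replicates; the guides were matched within experiments by the experiment term. No member was called between guides under any of the other scalings, filters and tests, and between experiments 59 to 72 were called, with 52 to 63 lower and 7 to 11 higher. Median log2 fold changes between experiments stayed below 0 for all members and each complex. They moved by more than the spread between the guides with upper-quartile factors (-0.37 for all members, -0.39 for complex II, -0.38 for complex III), at a mean of at least 5 CPM (-0.41 for complex II), and, in alternatives chosen after seeing the data, with a GC trend removed (-0.40 for complex II, -0.55 for complex III, -0.20 for complex IV) or a length trend removed (-0.37 for all members, -0.33, -0.36 and -0.36 for complexes I, II and III). The GC trend also turned Uqcrb (0.25) and Cox7b (0.0149). Mean log2 CPM in place of summed counts turned the ratio to other members between guides for complex II (0.0133) and complex IV (-0.02), and between experiments for complex III (0.0064). With total counts alone 5 members had sgElovl1 below sgNT in all columns and 0 above, and with upper-quartile factors 4 were above.

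With 1 column left out, medians between experiments ranged from -0.52 to -0.43 for all members and from -0.68 to -0.46 for complex V. The other term was then dropped in each comparison. The experiment values thus carry the difference between guides too. The guide values carry the difference between experiments and say nothing of the guide alone. Medians between guides ranged from -0.27 to 0.22 for all members, -0.23 to 0.22 for complex I, -0.27 to 0.25 for II, -0.27 to 0.22 for III, -0.25 to 0.17 for IV and -0.41 to 0.30 for V. Summed CPM (log2) ranged from -0.31 to 0.17 for all members, -0.21 to 0.11 for complex I, -0.34 to 0.20 for II, -0.31 to 0.19 for III, -0.17 to 0.084 for IV and -0.43 to 0.25 for V. Ratios to other members ranged from -0.10 to 0.14 for complex I, -0.0591 to 0.053 for II, -0.0006 to 0.0213 for III (between experiments -0.0204 to 0.0033), -0.11 to 0.17 for IV and -0.20 to 0.13 for V. Mitochondrial to nuclear ratios ranged from 0.09 to 0.89 for complex I, -0.0466 to 1.03 for III, 0.04 to 0.94 for IV, -0.26 to 1.73 for V and -0.0106 to 1.03 for all 4. Elovl1 between experiments ranged from -0.59 to 0.28. It turned to 0.28 without the sgNT column of experiment 1 and to 0.14 without the sgElovl1 column of experiment 2. In both fits the columns compared differed in guide as well as experiment, so the 2 cannot be told apart there. With the same columns left out, mt-Atp8 between guides turned to -0.13 and -0.07, in a range of -0.13 to 2.67. Those guide values carry the difference between experiments too, and the cause was not tested.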
